A study of Sus scrofa with 48 samples.

Results

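Genes of oxygen supply and of the response to low oxygen were followed in the longissimus muscle of growing pigs from a pair of lines bred in opposite directions for residual feed intake (RFI), the feed eaten beyond that predicted from growth and maintenance. The genes were MB, CA3, HIF1A, EPAS1, VEGFA, VEGFB, KDR, PECAM1, EGLN1 and EGLN3. Their probes were taken as the spots named with 1 of these symbols, or with the symbol in round brackets in the description, that were well above background on at least 12 arrays. This gave 48 probes of the 42125 tested on the array, and all 48 found passed the limit. Of these probes, 47 were well above background on all 48 arrays, and a KDR probe (O306) was on 33.

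The samples came from 48 barrows (castrated males) of purebred Large White lines, each on its own array, in 4 groups of 12 pigs. The line with low RFI is labelled RFIneg and that with high RFI is labelled RFIpl. Each line was split between HF, a diet with much fat and fiber, and LF, a diet with little of either. All had free access to feed, and both lines were selected, so that neither side of a line difference is an unselected control. Each pig is a separate animal, and the age of the pigs is not given in the sources used here. The muscle was homogenised whole, and in such samples fewer cells of a type and less RNA per cell cannot be told apart.

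Muscle fibres receive oxygen from capillaries and store it on myoglobin. When oxygen is scarce, the alpha subunits of the hypoxia-inducible factors (HIF) escape breakdown and switch on genes of glycolysis, vessel growth and iron handling. When oxygen is ample, prolyl hydroxylases mark the alpha subunits for breakdown, and a further hydroxylase blocks their C-terminal activation domain. Vessel growth is driven by vascular endothelial growth factors acting on receptors of the endothelial cells that line capillaries. Most of this control acts on protein, which was not measured here.

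Levels are the log2 of the background-subtracted spot signal, from which the array's mean over tested probes was subtracted, so that 0 is an average probe. The array held 60306 spots that were not controls, no spot was saturated, and arrays had 59.2% to 74.2% of their probes well above background. Line and diet differences were tested by limma on all tested probes, with Benjamini-Hochberg adjustment, and a probe was called at an adjusted p under 0.05. All 74 probes of the skeletal muscle markers on the array were detected on enough arrays to be tested, as were 14 of the 15 endothelial marker genes (not ROBO4). Some cell type markers differed between the lines in these samples. In high RFI pigs, 11 of 19 leukocyte and 10 of 35 adipocyte probes were called higher, and 15 of 74 skeletal muscle probes lower. Over all tested probes, 6.57% were called higher and 9.85% lower. The adipocyte calls were 8 of 8 FABP4 probes and 2 of 4 LIPE probes. ADIPOQ, PLIN1, LEP, CIDEC, CIDEA and GPD1 had 0 probes called. The called leukocyte probe with the largest difference was 1 of LYZ, the macrophage lysozyme (1.68). In the adipocyte list it was 1 of FABP4, the fatty acid binding protein of fat cells (0.61). In the skeletal muscle list it was 1 of MYOT, myotilin of the sarcomere (-0.28). MYOT had 2 of its 23 probes called, with a median difference of -0.14 over all 23.

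The level of CA3 was lower in high RFI than in low RFI pigs, and it was the only one of the 10 genes for which most probes were called. Of the 48 probes, 16 differed between the lines, all lower in high RFI pigs, against 16.4% of all tested probes called in either direction, 6.57% higher and 9.85% lower. CA3 accounted for 15 of the 16, and EPAS1 for 1. Outside CA3, 1 of 28 probes was called, a share of 3.57%, which is below the share over the array.

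CA3 is carbonic anhydrase 3, a cytosolic enzyme abundant in skeletal muscle, with low activity for carbon dioxide hydration and found above all in slow fibres. At its leading probe (the one with the highest mean level, A_72_P583076), low RFI pigs on the HF diet had a lowest, median and highest level of 9.20, 9.40 and 9.58. Their high RFI counterparts had 8.72, 9.22 and 9.30. On the LF diet, low RFI pigs had 9.01, 9.39 and 9.57, and high RFI pigs had 8.83, 9.25 and 9.60. The ranges of the lines overlapped on both diets, and all 12 high RFI pigs on the HF diet, but 9 of 12 on the LF diet, were below the mean of the low RFI pigs on the same diet.

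Over both diets, the leading CA3 probe had a mean of 9.22 ± 0.19 in the high RFI line and 9.37 ± 0.13 in the low RFI line (± SD, n = 24 pigs per line, as in all line means here). The difference was -0.15 (standard error 0.048, 95% confidence interval -0.25 to -0.057, limma adjusted p = 0.0221), which is a ratio of 0.899 between the lines. It was below 0 within each of the 6 slides, between -0.24 and -0.064, and on both scan days. All 20 CA3 probes had a difference below 0, between -0.18 and -0.11 with a median of -0.15, while the median over all tested probes was -0.029. After quantile normalization the difference at the leading probe was -0.044 (limma adjusted p = 0.391) and 0 of the 20 probes were called, and without the filter on dim probes 2 were.

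The 20 CA3 probes are not 20 separate measurements, since 23 pairs of them share a run of at least 20 bases and they fall into 6 separate stretches of sequence. The runs held by 3 or 4 probes are shown with the calls of the probes that hold them, each written 5′ to 3′ as on the array. Calls were mixed within a stretch: A_72_P576054, not called, shares 33 bases with A_72_P560224, which was called.
CA3 run held by 4 probes: gatctaatacgaaagcatttggcctt
CA3 run held by 3 probes, all of them called: caagaattgcaatgatgctgtgtgt
CA3 run held by 3 probes, overlapping the first: gttactattgacagatctaatacg
CA3 run held by 3 probes, none of them called: aaattaagacaaagggcaagga
The first run is in 4 probes with differences from -0.18 to -0.14, all called, and the second in 3 probes with differences from -0.16 to -0.13, all called. The last run is in A_72_P581862, A_72_P550291 and A_72_P555331, whose differences were -0.12, -0.11 and -0.12 with standard errors of 0.065 to 0.069, wider than that of the leading probe. Their intervals include 0 and also the difference at the leading probe, so that the stretches were not shown to differ.

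**Figure D1:**
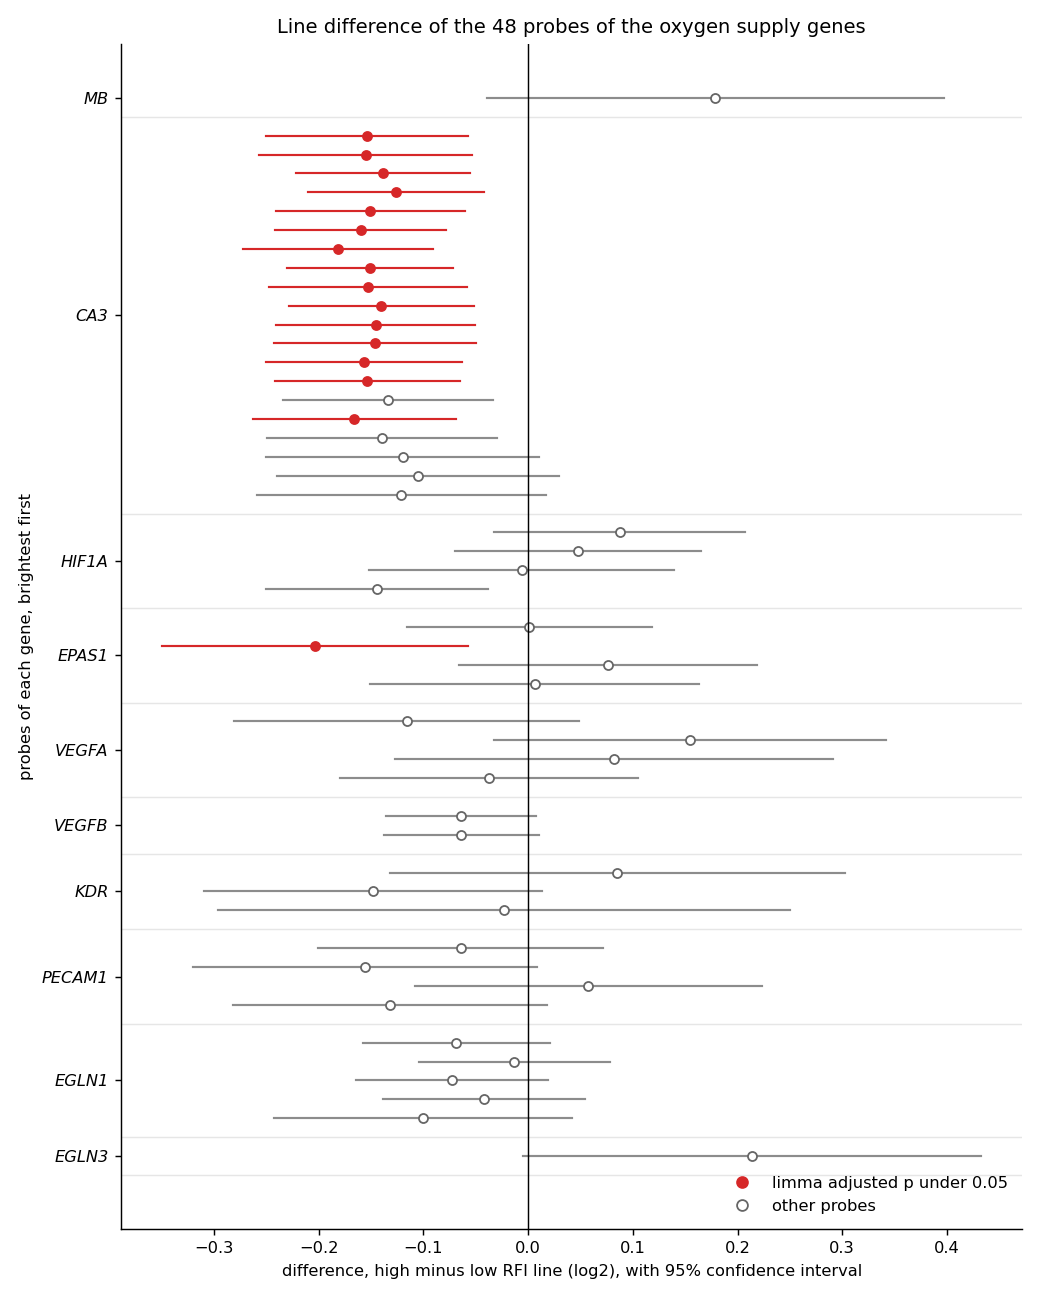
Line difference (high minus low RFI, log2, x axis) of the 48 probes, grouped by gene and ordered by level within a gene (y axis), with 95% confidence intervals as lines and probes called by limma filled in red. All 20 CA3 probes lie below 0 and 15 of them are called, whereas the other 28 probes lie on both sides of 0 and 1, from EPAS1, is called.

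MB, myoglobin, which binds oxygen inside muscle fibres, is represented by 1 probe (A_72_P302979). Its lowest, median and highest levels were 2.69, 3.48 and 4.01 in low RFI and 3.15, 3.77 and 4.45 in high RFI pigs fed HF. With LF they were 2.99, 3.60 and 4.65 in low RFI and 3.38, 3.58 and 4.32 in high RFI pigs. The groups overlapped, and 15 of 24 high RFI pigs were above the mean of the low RFI pigs. The line difference was 0.18 (standard error 0.11, 95% confidence interval -0.039 to 0.40, limma adjusted p = 0.258), opposite in sign to that of CA3 and not called. It lay above 0 within each of the 6 slides, from 0.035 to 0.31.

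Other oxygen carriers and carbonic anhydrases formed a list, of which 11 genes with 18 probes were tested. Of these probes, 2 were called higher and 2 lower in high RFI pigs, 22.2% in all against 16.4% over the array. The median difference was 0.068. Both higher probes belong to CA4, the carbonic anhydrase anchored on the outer face of cell membranes, which in muscle lies on capillaries and fibre surfaces. CA4 was higher by 0.96 at each of its probes (standard error 0.16, limma adjusted p = 4.47e-05), a difference opposite in sign to that of CA3. CA11, a related protein without enzyme activity, had -0.37 at 1 probe (limma adjusted p = 0.00104) and 0.040 at its other probe. NGB, neuroglobin, had -0.31 at 1 probe (limma adjusted p = 0.0221) and 0.0033 at the other. HBB, the beta chain of haemoglobin, had -0.015, and SLC4A1, the anion exchanger of red cells, was called higher with 0.26.

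HIF1A and EPAS1 encode HIF-1 alpha and HIF-2 alpha, the oxygen-regulated subunits of the transcription factors, the second of which is strongly expressed in endothelium. At the leading HIF1A probe (A_72_P280249), the lowest, median and highest levels were 0.58, 0.96 and 1.04 in low RFI and 0.62, 1.0 and 1.38 in high RFI pigs fed HF. With LF they were 0.70, 1.09 and 1.29 in low RFI and 0.81, 1.05 and 1.41 in high RFI pigs. The lines overlapped on both diets, and the line difference of 0.087 (standard error 0.060, 95% confidence interval -0.033 to 0.21, limma adjusted p = 0.324) was not called.

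The dimmest HIF1A probe (A_72_P585741) had the opposite sign. Its mean was -1.55 ± 0.16 in the high RFI line and -1.40 ± 0.20 in the low RFI line. The line difference was -0.14 with a standard error of 0.053 and missed the threshold (limma adjusted p = 0.0524). It was below 0 within each of the 6 slides, from -0.27 to -0.0039. Its level followed that of the leading probe weakly over the 48 pigs (Pearson's r = 0.12, p = 0.420, adjusted p = 0.432, and Spearman's rho = 0.077, p = 0.607, adjusted p = 0.624, permutation tests), whereas O277 and A_72_P213487 had r of 0.88 and 0.69 with it, the first of which shares a run of 57 bases with the leading probe. The sign for HIF1A differed among its probes, and the mean over its 4 probes was -0.0039. The sequence of the probe is shown since it lies over the codons of the prolyl hydroxylation motif of HIF-1 alpha, which the proteins of EGLN1 and EGLN3 modify; the capitals mark those codons.
HIF1A A_72_P585741: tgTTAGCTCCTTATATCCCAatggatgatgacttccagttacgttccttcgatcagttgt

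EPAS1 gave 4 probes in 4 separate stretches, and 1 of them was called. At the leading probe (O10512), the means were 4.11 ± 0.22 in the high RFI line and 4.11 ± 0.18 in the low RFI line. They differed by 0.0012 (95% confidence interval -0.12 to 0.12, limma adjusted p = 0.993). At the called probe (A_72_P441713), the lowest, median and highest levels were 1.78, 2.29 and 2.64 in low RFI and 1.49, 2.0 and 2.62 in high RFI pigs fed HF. With LF they were 1.89, 2.03 and 2.58 in low RFI and 1.59, 1.97 and 2.39 in high RFI pigs. The ranges overlapped, and 19 of 24 high RFI pigs were below the mean of the low RFI pigs.

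The difference at the called EPAS1 probe was -0.20 (standard error 0.073, 95% confidence interval -0.35 to -0.058, limma adjusted p = 0.0463), a ratio of 0.868. It was below 0 within each of the 6 slides, from -0.29 to -0.057. The differences at the other 3 EPAS1 probes were between 0.0012 and 0.076, and none was called. The call was lost with 5 of the alternative settings, with limma adjusted p between 0.0625 and 0.120, among them scaling by the 75th percentile. Over the 48 pigs, the called probe had r = 0.34 with the leading probe (p = 0.0248, adjusted p = 0.0262, and rho = 0.29, p = 0.0516, adjusted p = 0.0544, permutation tests), below the r of 0.63 and 0.55 of the other probes. The 2 EPAS1 sequences are shown because one was called and the other not: the capitals in the first mark the codons that end with the asparagine of the C-terminal activation domain that is hydroxylated when oxygen is ample, and the second lies upstream, ahead of the prolyl hydroxylation motif.
EPAS1 A_72_P441713, called: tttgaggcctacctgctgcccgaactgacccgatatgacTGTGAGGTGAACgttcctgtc
EPAS1 A_72_P133976, not called: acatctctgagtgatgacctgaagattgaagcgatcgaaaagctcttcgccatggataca

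EGLN1 and EGLN3 encode the prolyl hydroxylases PHD2 and PHD3, which mark HIF alpha for breakdown, and EGLN3 is itself a known HIF target. EGLN1 had 5 probes in 5 separate stretches, all with a line difference below 0, between -0.10 and -0.013, and none was called (smallest limma adjusted p = 0.278). At its leading probe (A_72_P532618), the mean was 5.54 ± 0.16 in the high RFI line and 5.61 ± 0.13 in the low RFI line, and 19 of 24 high RFI pigs were below the mean of the low RFI pigs. The difference of -0.069 (95% confidence interval -0.16 to 0.021, limma adjusted p = 0.293) was below 0 within each of the 6 slides.

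EGLN3, with a single probe (O13581), had the largest difference above 0 of the 48 probes. Its lowest, median and highest levels were -1.46, -1.10 and -0.62 in low RFI and -1.94, -0.90 and -0.030 in high RFI pigs fed HF. With LF they were -1.66, -1.17 and -0.44 in low RFI and -1.44, -0.83 and -0.55 in high RFI pigs. High RFI pigs on the HF diet covered the widest range of any group, with the lowest and the highest level of all 48 pigs. The difference of 0.21 (standard error 0.11, 95% confidence interval -0.0048 to 0.43, limma adjusted p = 0.171) was not called, although 18 of 24 high RFI pigs were above the mean of the low RFI pigs and it was above 0 within each slide.

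**Figure D2:**
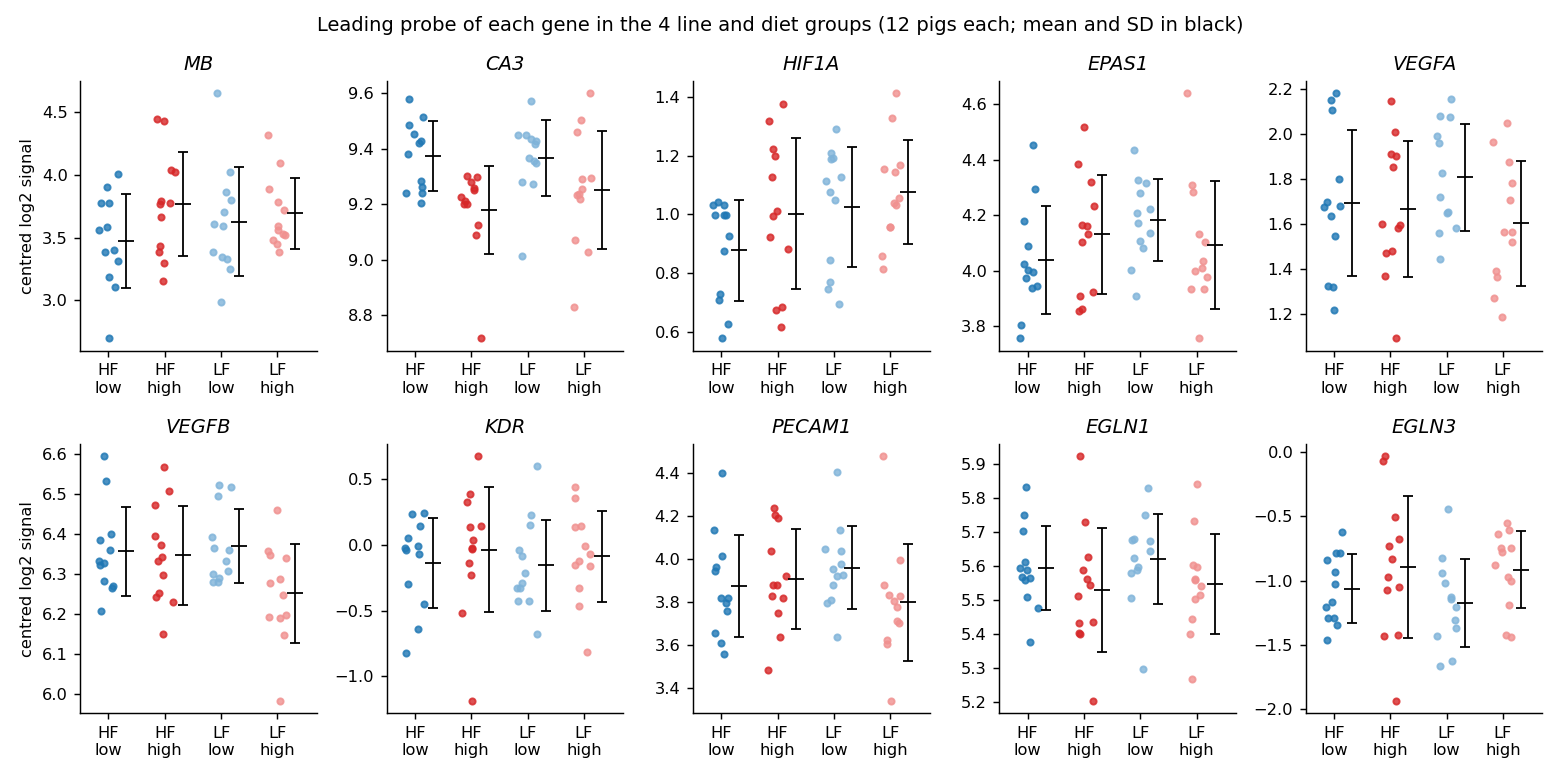
Level (centred log2 signal, y axis, a scale of its own in each panel) of the leading probe of each of the 10 genes in the 4 groups of diet and line (x axis), with a point per pig and the mean and SD of 12 pigs in black. For CA3, the high RFI pigs on the HF diet lie between 8.72 and 9.30, all below the low RFI mean of 9.37. The ranges of the lines overlap for every gene, CA3 included.

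The further regulators of HIF, of which 14 genes with 35 probes were tested, had 8 probes called lower and 0 higher in high RFI pigs, a share of 22.9% against 9.85% called lower and 16.4% called in all over the array. The median difference was -0.092. COPS5, a subunit of the COP9 signalosome that binds HIF-1 alpha, had 5 of its 8 probes called lower, with all 8 between -0.15 and -0.085. EP300, the acetyltransferase that acts as HIF coactivator, had 2 of 7 probes called, with differences of -0.19 (limma adjusted p = 0.0178) and -0.18 (limma adjusted p = 0.0411). TCEB1, elongin C of the ubiquitin ligase that binds hydroxylated HIF, had a difference of -0.11 at its only probe and was called. All 3 genes also act outside the HIF pathway. Without the filter on dim probes 0 of the 35 were called.

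Of 84 probes for 27 known HIF targets, 8 were called higher and 11 lower, 22.6% in all against 16.4% over the array (6.57% higher and 9.85% lower), and the median difference was -0.033, close to the median over the array. Higher in high RFI pigs were all 4 probes of HMOX1, heme oxygenase 1, from 0.49 to 0.76, both probes of ADM, the vasodilator adrenomedullin, at 0.37 and 0.38, 1 of 3 probes of LOX, lysyl oxidase, at 0.60 (limma adjusted p = 0.00372), and 1 of 2 probes of HK2, hexokinase 2, at 0.38 (limma adjusted p = 0.0374). Lower were 6 of 9 probes of MXI1, an antagonist of MYC, and 3 of 6 of BNIP3L, a mitophagy receptor. So were 1 of 3 of PDK1, which inhibits pyruvate dehydrogenase, and 1 of 4 of CA9, a tumour-associated carbonic anhydrase. The glycolytic targets LDHA and PGK1 had 0 probes called of 3 and 7. HMOX1 is abundant in macrophages as well, and of the leukocyte markers the 11 probes called higher in high RFI pigs came from LYZ, CSF1R, ITGB2, AIF1 and CD14, which myeloid cells express. PTPRC, CD68 and the T cell markers CD3E and CD8A had 0 probes called, with differences from -0.38 to -0.35 for CD8A. Over all 19 probes, the mean level ranged from -2.44 to 0.58 in high RFI and from -2.68 to -0.78 in low RFI pigs. The part of these markers in the HMOX1 difference was not tested.

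VEGFA and VEGFB encode ligands of the vascular endothelial growth factor family, KDR the main signalling receptor of VEGFA on endothelium, and PECAM1 the adhesion molecule CD31 of endothelial junctions. None of their 13 probes was called between the lines. On the HF diet taken alone, 1 VEGFA probe had an unadjusted limma p under 0.05. On the LF diet, 2 VEGFB probes and 1 PECAM1 probe did. At the leading VEGFA probe (A_72_P414353), the mean was 1.63 ± 0.29 in the high RFI line and 1.75 ± 0.28 in the low RFI line, so that they differed by -0.12 (95% confidence interval -0.28 to 0.049, limma adjusted p = 0.341). The VEGFA probes did not share a direction, with differences of 0.15, 0.082 and -0.037 at the other 3.

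The VEGFA sequences are shown because they bear on which transcript strand and part each probe reads. The first lies in the part common to the isoforms, and the next in the part coding for the heparin-binding region that the shortest isoform lacks. The capitals mark 38 bases over which the last probe is the reverse complement of the first, so that both cannot bind the same strand.
VEGFA A_72_P414353, leading: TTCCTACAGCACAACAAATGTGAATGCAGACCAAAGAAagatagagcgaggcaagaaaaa
VEGFA A_72_P441494: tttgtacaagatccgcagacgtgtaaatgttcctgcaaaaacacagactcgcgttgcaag
VEGFA O11835, opposite strand: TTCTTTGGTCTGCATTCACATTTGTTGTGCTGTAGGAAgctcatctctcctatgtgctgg
Across the 48 pigs the first pair had r = 0.68 (rho = 0.64), and the opposite-strand probe had r = 0.39 with the leading probe (rho = 0.36, p = 0.00766 for r by permutation, adjusted p = 0.00856), and r was 0.17 with slide means also taken out. The fourth probe, A_72_P443769, had r = 0.072 with the leading probe (rho = 0.032), and r = 0.54 with slide means taken out.

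The leading VEGFB probe (A_72_P063881) varied least among the 10 leading probes, with means of 6.30 ± 0.13 in the high RFI line and 6.36 ± 0.10 in the low RFI line. Its line difference was -0.064 (95% confidence interval -0.14 to 0.0073, limma adjusted p = 0.211), and the other VEGFB probe, which overlaps it, had the same value. On the LF diet the lowest, median and highest levels were 6.28, 6.34 and 6.52 in low RFI and 5.98, 6.26 and 6.46 in high RFI pigs, and 11 of 12 high RFI pigs were below the low RFI mean. The difference on that diet was -0.12 (unadjusted p = 0.0228, limma adjusted p = 0.211) against -0.010 on the HF diet, and the test of the difference between the diets gave 0.11 (unadjusted p = 0.135, limma adjusted p = 0.999).

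KDR differed by 0.085 (standard error 0.11, 95% confidence interval -0.13 to 0.30, limma adjusted p = 0.628) at its leading probe (A_72_P380298), and by -0.15 and -0.023 at its other probes. High RFI pigs ranged from -1.19 to 0.67 (median -0.031) and low RFI pigs from -0.82 to 0.59 (median -0.079). PECAM1 differed by -0.065 (standard error 0.068, 95% confidence interval -0.20 to 0.072, limma adjusted p = 0.549) at its leading probe (A_72_P650260), and by -0.16, 0.058 and -0.13 at the others. Its levels ranged from 3.34 to 4.48 (median 3.83) in high RFI and from 3.56 to 4.41 (median 3.92) in low RFI pigs. The lines overlapped almost fully for both endothelial genes.

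Of the endothelial marker list, 2 of 29 probes were called, both of TEK, the angiopoietin receptor TIE2 (0.24 and 0.21, limma adjusted p = 0.0473 and 0.0454). That is 6.90% of the list, against 16.4% over the array, 6.57% higher and 9.85% lower. The mean level of the list ranged from -0.83 to -0.30 in high RFI and from -1.01 to -0.10 in low RFI pigs. Of 32 probes of VEGF and angiopoietin signalling, 12 were called higher and 1 lower, 40.6% in all against 16.4% over the array. They came from THBS1, the anti-angiogenic matrix protein thrombospondin 1 (5 of 7 probes higher, the largest 0.62, and 1 lower, -0.13), SPARC, a matrix protein that binds VEGF (4 of 8), TEK (2 of 4) and FLT1, the VEGF receptor 1 (1 of 2, 0.32, limma adjusted p = 0.0172). Macrophages and fibroblasts also express several of these genes. Of the pericyte and smooth muscle list, 2 of 25 probes were higher, of CSPG4 and KCNJ8, and 1 lower, of PDGFRB at -2.04, whose other probe had 0.084. The calls were 12% of that list, below the 16.4% over the array. Without the 2 arrays farthest on the principal components, 7 of the 32 signalling probes and 0 of the endothelial probes were called.

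Fibre type lists were set beside the oxygen genes because slow fibres hold more myoglobin and capillaries. Of 67 fast fibre probes, 30 were called lower and 0 higher, 44.8% against 9.85% called lower over the array. The fast fibre median was -0.11. Of 51 slow fibre probes 1 was called, for ATP2A2 (0.23), a share of 1.96%. The slow fibre median was 0.12, but 21 of the 51 probes were of ATP2A2. By gene, the medians of MYL2, TNNT1, TNNC1 and TPM3 were below 0, from -0.076 to -0.0033. Those of ATP2A2, MYH7, TNNI1 and MYOZ2 were above 0, from 0.025 to 0.29. Among called fast fibre probes, the largest differences were those of ATP2A1, the fast calcium pump (-0.31), MYLPF (-0.29) and MYH4 (-0.25). The fast fibre and skeletal muscle lists share MYH1, MYH2 and TNNT3, so that their counts overlap. In these lists ACTA1 and MYH1 had 0 probes called. The called probes, 30 of 67 for fast fibres and 15 of 74 for skeletal muscle, were lower in the same line as CA3. Their part in the CA3 difference was not tested. The mean level over the fast fibre list ranged from 8.46 to 8.87 in high RFI and from 8.67 to 9.08 in low RFI pigs, and that over the skeletal muscle list from 7.89 to 8.44 and from 8.06 to 8.62. With quantile normalization, 6 of the 67 fast fibre and 6 of the 74 skeletal muscle probes were called.

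**Figure D3:**
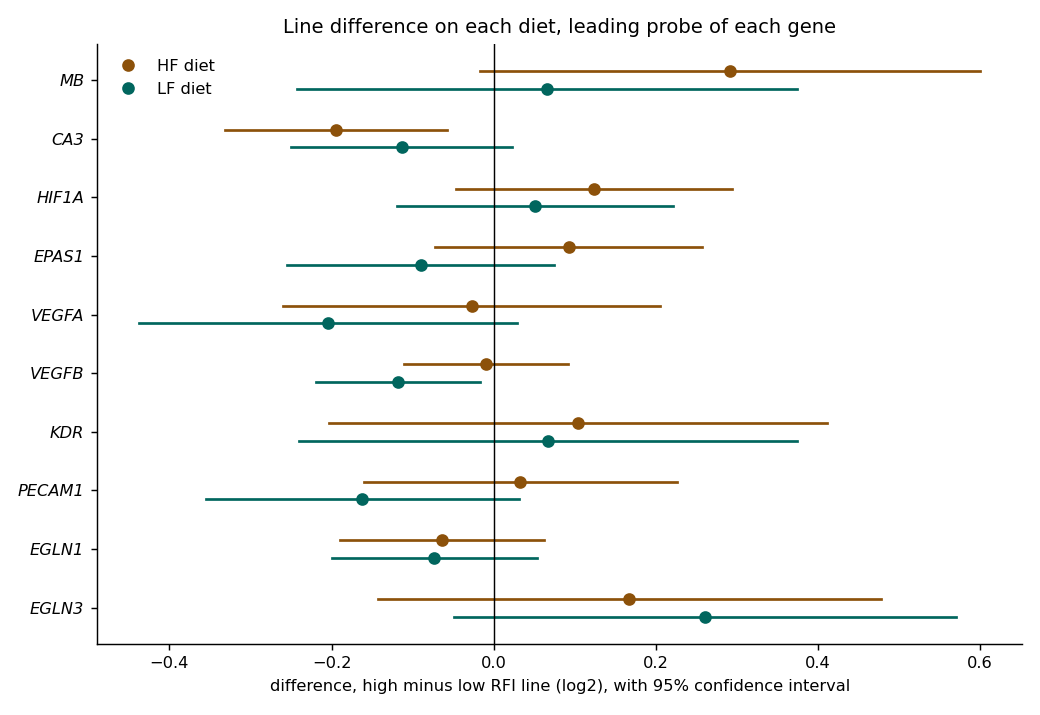
Line difference (high minus low RFI, log2, x axis) at the leading probe of each gene (y axis) on the HF and on the LF diet, with 95% confidence intervals as lines. CA3 lies below 0 on both diets, at -0.19 and -0.11, and the intervals of the 2 diets overlap for every gene.

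Within diets, the lines differed at 5 of the 48 probes on the HF diet, all CA3 and all lower in high RFI pigs, against 6.39% of all tested probes, 2.36% higher and 4.03% lower. On the LF diet 0 of the 48 were called, against 2.47% of all tested probes, 1.13% higher and 1.34% lower, with 5 at an unadjusted p under 0.05. All 20 CA3 probes were below 0 on each diet, from -0.25 to -0.13 on the HF diet and from -0.14 to -0.063 on the LF diet. At the leading probe the differences were -0.19 (limma adjusted p = 0.0690) and -0.11 (limma adjusted p = 0.414). The count on the HF diet moved with the processing, and without the 2 arrays farthest on the principal components, both of high RFI pigs on the HF diet, it was 1.

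The smaller number of calls on the LF diet was not shown to be a difference between diets. None of the 48 probes had a line by diet interaction by limma, as was the case for 0% of all tested probes, and 2 had an unadjusted p under 0.05. These were A_72_P443769 of VEGFA, with an interaction of 0.46 (95% confidence interval 0.044 to 0.88, p = 0.0309, limma adjusted p = 0.999), and A_72_P077376 of PECAM1, with 0.35 (95% confidence interval 0.016 to 0.68, p = 0.0405, limma adjusted p = 0.999). At both, the line difference was above 0 on the HF diet, at 0.31 and 0.23, and below 0 on the LF diet, at -0.15 and -0.12. For CA3 the interaction at the leading probe was -0.081 (95% confidence interval -0.27 to 0.11).

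No diet difference was called for these genes. Averaged over the lines, 0 of the 48 probes were called between HF and LF diets, against 0.420% of all tested probes (0.176% higher and 0.245% lower on HF), and 3 had an unadjusted p under 0.05. Within low RFI pigs 0 were called, against 0.199% of all tested probes (0.112% higher and 0.0878% lower on HF), with 3 at an unadjusted p under 0.05, and within high RFI pigs 0 were called, as for 0% of all tested probes, with 0 at an unadjusted p under 0.05.

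HIF1A held the smallest p of the diet comparison. The HF minus LF difference at O277 was -0.16 (95% confidence interval -0.28 to -0.042, p = 0.00887, limma adjusted p = 0.205), and the leading probe, with which it shares 57 bases, had -0.11 (95% confidence interval -0.23 to 0.0097). A_72_P213487 had -0.16 and A_72_P585741 had 0.087, so that 3 of the 4 HIF1A probes were below 0 and none was called. The third unadjusted p under 0.05 was that of A_72_P441494 of VEGFA, at -0.20 (p = 0.0405, limma adjusted p = 0.352). At the leading probes, the confidence intervals of the diet difference lay within -0.13 to 0.065 for CA3, -0.26 to 0.18 for MB and -0.15 to 0.28 for EGLN3. Among the other lists, 1 probe was named by the diet comparison, 1 of 2 of PGF, placental growth factor. This probe was lower on the HF diet, by -0.63 with a standard error of 0.15 (limma adjusted p = 0.0435). It was well above background on 38 arrays, and the other PGF probe was not called.

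Pigs of the same group differed in these genes in ways that were shared between genes. Levels of the leading probes, as deviations from the means of the 4 groups, were correlated over the 48 pigs in 45 pairs of genes, with permutation tests within groups and Benjamini-Hochberg adjustment over the 45. By Pearson's r 10 pairs were called, 9 positive and 1 negative, and 6 of these were called by Spearman's rho as well.

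EPAS1, KDR and PECAM1 were correlated with each other. EPAS1 and PECAM1 had r = 0.65 (p = 3e-05, adjusted p = 0.000675) and rho = 0.55 (p = 0.0001, adjusted p = 0.00285) in a permutation test, and r = 0.54 without the 2 pigs farthest from the median EPAS1 level. KDR and PECAM1 had r = 0.60 (p = 2e-05, adjusted p = 0.000675) and rho = 0.52 (p = 0.00019, adjusted p = 0.00285) in the permutation test, and r = 0.50 without 2 pigs. EPAS1 and KDR had r = 0.54 (p = 0.00018, adjusted p = 0.0027) and rho = 0.53 (p = 0.00018, adjusted p = 0.00285), and again r = 0.54 without 2 pigs. With slide means also taken out, r was 0.63, 0.57 and 0.47 for these pairs. Within single slides, which hold 8 pigs each, r ranged from -0.62 to 0.83 for EPAS1 and PECAM1, from 0.15 to 0.87 for KDR and PECAM1 and from 0.20 to 0.75 for EPAS1 and KDR. The relation of EPAS1 and PECAM1 did not hold on every slide.

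The genes most alike to each of the 3, among 9944 symbols at their leading probes, are given as a description. For KDR these were ERG, an endothelial transcription factor (r = 0.81), MYCT1 (r = 0.70) and GNG11 (r = 0.69). For PECAM1 they were RAPGEF5 (r = 0.74), RGS5, a pericyte gene (r = 0.72), and ERG (r = 0.72). For EPAS1 they were PTPRB, the vascular endothelial phosphatase (r = 0.73), GPR56 (r = 0.72) and CDH5, vascular endothelial cadherin (r = 0.69). They were picked as the highest of many values, from 48 pigs, and carry no test.

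**Figure D4:**
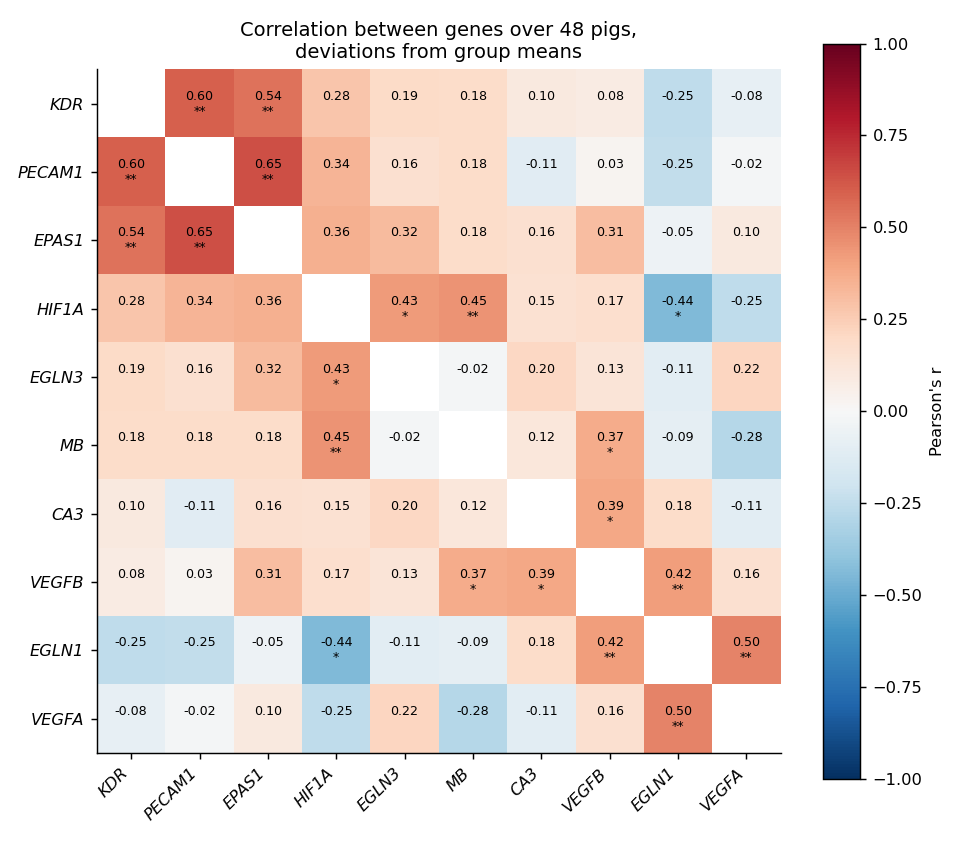
Pearson's r between the 10 genes over 48 pigs, from deviations of the leading probes from their group means (colour and printed value), with 1 star for pairs called by r and 2 stars for pairs called by r and by Spearman's rho. KDR, PECAM1 and EPAS1 form a block with r from 0.54 to 0.65, and the negative call is that of HIF1A and EGLN1 at -0.44.

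VEGFA did not belong to that block: its r was -0.085 with KDR and -0.022 with PECAM1, while it had r = 0.50 with EGLN1 (p = 0.00049, adjusted p = 0.00551, rho = 0.50, p = 0.00048, adjusted p = 0.0054, permutation tests). That pair had r between 0.41 and 0.62 on each of the 6 slides, r = 0.43 with slide means taken out and r = 0.47 without 2 pigs. EGLN1 was also correlated with VEGFB, at r = 0.42 (p = 0.00476, adjusted p = 0.0306) and rho = 0.47 (p = 0.0016, adjusted p = 0.012) in permutation tests, with r of 0.40 without 2 pigs, 0.48 with slide means taken out and 0.23 to 0.67 on single slides.

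By r alone, HIF1A was called with the hydroxylase genes EGLN1 and EGLN3, with opposite signs. With EGLN1 it had r = -0.44 (p = 0.00353, adjusted p = 0.0265) in a permutation test, below 0 on each slide (-0.65 to -0.079), and with EGLN3 it had r = 0.43 (p = 0.00664, adjusted p = 0.0373). Neither was called by rho, at -0.33 (p = 0.0291, adjusted p = 0.106) and 0.36 (p = 0.0182, adjusted p = 0.0911) in permutation tests. Without 2 pigs r was -0.38 and 0.42. With slide means taken out r was -0.39 (adjusted p = 0.0434) and 0.40 (adjusted p = 0.0552), and within slides the relation with EGLN3 ranged from -0.11 to 0.87.

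**Figure D5:**
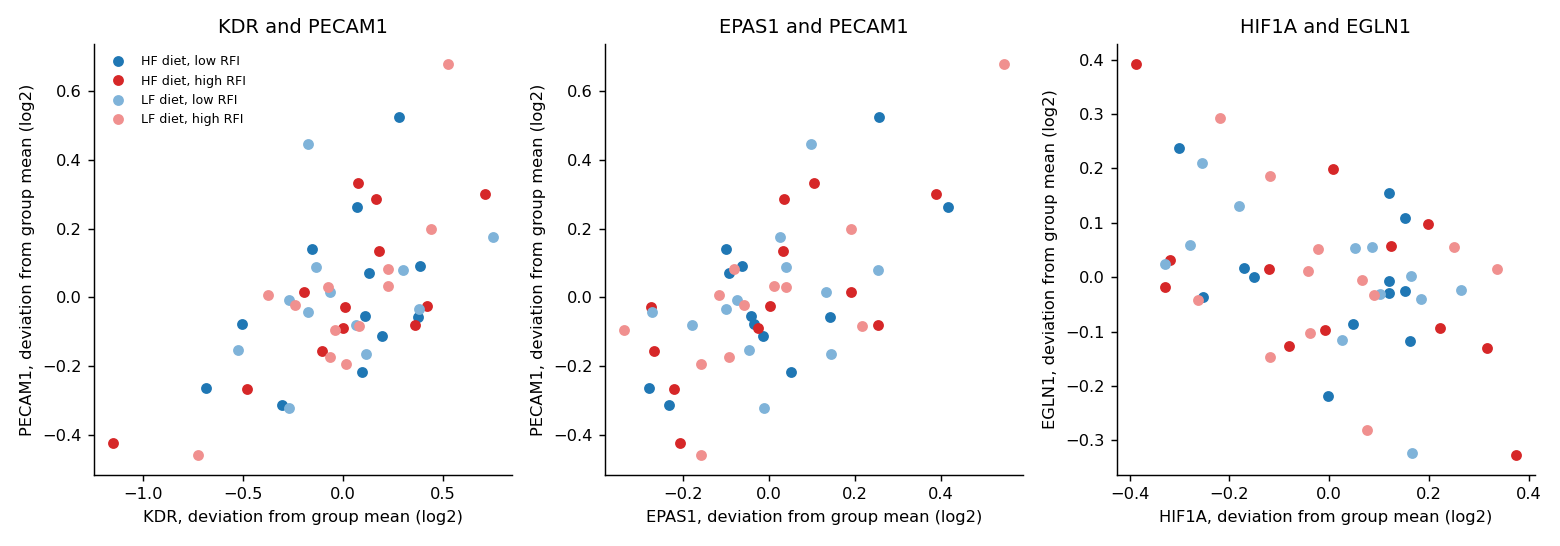
Deviation from the group mean (log2) of the leading probes of KDR and PECAM1, EPAS1 and PECAM1, and HIF1A and EGLN1 (x and y axes of the 3 panels), with a point per pig coloured by diet and line. Deviations of KDR and of EPAS1 rise with those of PECAM1 (r = 0.60 and 0.65), and those of HIF1A run against those of EGLN1 (r = -0.44).

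MB and HIF1A had r = 0.45 (p = 0.00223, adjusted p = 0.0201) and rho = 0.50 (p = 0.00069, adjusted p = 0.00621) in permutation tests, and r = 0.41 without 2 pigs. This relation did not hold with slide means taken out, where r was 0.30 (adjusted p = 0.153), and r was -0.10 to 0.66 on single slides. VEGFB had r = 0.37 with MB (p = 0.0102, adjusted p = 0.0458, 0.31 without 2 pigs) and r = 0.39 with CA3 (p = 0.00997, adjusted p = 0.0458, 0.33 without 2 pigs) in permutation tests. By rho these were 0.39 (p = 0.00821, adjusted p = 0.0528) and 0.37 (p = 0.0133, adjusted p = 0.0748) in permutation tests and missed the threshold. With slide means taken out, r was 0.36 for MB (adjusted p = 0.0696), which was no longer called, and 0.39 for CA3 (adjusted p = 0.0482). On single slides they ranged from -0.036 to 0.70 and from -0.051 to 0.61. MB and CA3, both proteins of the fibre itself, had r = 0.12 (p = 0.425, adjusted p = 0.584) and rho = 0.10 (p = 0.498, adjusted p = 0.623) in permutation tests.

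The genes most alike to MB and VEGFB included mitochondrial ones. For VEGFB they included NDUFA11, a subunit of complex I (r = 0.72), and SDHA, a subunit of complex II (r = 0.67). For MB they were ATP5A1, a subunit of the ATP synthase (r = 0.68), MYL12A (r = 0.68) and NIPSNAP3A (r = 0.68). For CA3 they were TRDN, triadin of the sarcoplasmic reticulum (r = 0.76), ACTB, beta actin (r = 0.72), and R3HDM2 (r = 0.71). HIF1A was most like LITAF, SNX1 and XPOT (r = 0.67, 0.65 and 0.63), VEGFA like AARSD1, PRKAR2A and TMEM129 (r = 0.60, 0.59 and 0.58), EGLN1 like C7ORF26, UBE2Q1 and RBM38 (r = 0.79, 0.78 and 0.76), and EGLN3 like XPOT, ARG2 and FBXO8 (r = 0.55, 0.53 and 0.53).

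Probes of the same gene were compared with its leading probe in 38 pairs, of which 36 were called by r and 35 by rho as well (permutation tests, adjusted over the 38). The 19 CA3 probes had r from 0.75 to 0.95 with theirs, the 3 of PECAM1 from 0.70 to 0.75, the 4 of EGLN1 from 0.43 to 0.84 and the 2 of KDR 0.71 and 0.38. The lower KDR value belongs to O306, the probe that was well above background on 33 arrays.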

How the data were processed

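Each longissimus muscle sample was labelled with Cy3 and hybridised to a 60 K porcine array, and the authors deposited the Agilent Feature Extraction (version 10.7.3.1) spot intensities of the 48 arrays, with a deposited log2 table for 34472 probes, whose values equal each spot's log2 median intensity less the median of its array. Controls and spots marked as outliers were removed, and the spots of a probe were averaged. Each of 6 slides carried 8 arrays, 2 from every group. The number of arrays limits the precision. Lines, diets and their interaction were fitted on 4 group means in limma 3.58.1 (R 4.3.3), adjusted over all 42125 tested probes. On simulated data for the lines (41957 probes, 200 changed), 80% of differences of 0.5 and 97% of differences of 1 were recovered. The line differences of the 48 probes were smaller, from -0.20 to 0.21, and recovery at such sizes was not simulated. Correlations used 100000 permutations (Python 3.11.15, scipy 1.17.1). The submitters' processing notes name R 2.10.0. The genes, lists and tests were chosen with earlier results of these data known. Named were the 10 genes, of each list the up to 3 called probes with the largest difference, and the 3 genes most alike to each of the 10. NGB, HBB, TCEB1, ADM, HK2, MXI1, BNIP3L, PDK1, CA9, LDHA, PGK1, SPARC, FLT1 and TEK as a signalling gene lie outside this rule and were chosen after their values were seen. Alternatives covered scaling, background correction, dim probes, outlier spots, slide, the deposited table, 2 outlying arrays and gene means. Some results for single genes are not reported here.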

Additional observations from a re-analysis of the deposited data

How the results depend on the processing

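Between the lines, 16 probes of the 10 genes were called, and counts with the alternatives stayed within 1.5 times of this except after quantile normalization (1) and without the filter on dim probes (2). On the HF diet the 5 calls became 10 with scaling by the 75th percentile, 0 after quantile normalization, 2 with normexp background correction, 0 without the filter, 15 with slide as a block, 9 in the deposited table and 1 without the 2 arrays farthest on the principal components. The leading CA3 probe kept its sign in all settings, from -0.15 to -0.044, and lost its call after quantile normalization (limma adjusted p = 0.391), with normexp (0.0783) and without the filter (0.101); the cause was not tested. The mean over a gene's probes turned the line difference to -0.0039 for HIF1A, -0.030 for EPAS1, 0.021 for VEGFA and -0.029 for KDR. The diet difference turned to 0.00052 for VEGFA and 0.0038 for EGLN1 with scaling by the 75th percentile, and to 0.0075 for MB without the 2 arrays. With slide means taken out, 3 correlations missed the threshold: MB with HIF1A (0.30), MB with VEGFB (0.36) and HIF1A with EGLN3 (0.40). No paired analysis was possible because the numbers in the labels name single pigs. Probes near the background, such as the KDR probe O306, limit what can be seen.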
